A study of Mus musculus with 12 samples.

Results

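Long noncoding RNAs (lncRNAs) of mouse liver nuclei were set beside those of whole liver, both taken 3 h after the mice received TCPOBOP. The lncRNAs described here were the 1343 of 15558 entries in the table that lie on an autosome and reached at least 1 RPKM in whole liver or in the mean of 3 nuclear pools. RPKM is the number of reads per kilobase of the counted sequence and per 1000000 reads (M) of the library. The 1343 lncRNAs comprised 695 intergenic entries, 572 antisense entries and 76 intragenic entries, a class written into each identifier. A level of 1 RPKM was reached in both compartments by 675 of them, in nuclei alone by 459 and in whole liver alone by 209. The 459 and the 209 had to differ in their own direction, because the threshold that admitted them was passed on 1 side alone.

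All mice were CD-1, an outbred stock, 8 weeks old, and all had been injected with an agonist. Nuclear RNA of TCPOBOP-treated males at 3 h came from 3 pools of 4 livers each, in the experiment coded G95. Whole-liver RNA of TCPOBOP-treated males at 3 h came from 1 library of 6 livers, in the experiment coded G81. Libraries used beside these were nuclear RNA of PCN-treated males at 3 h (1 library of 2 livers, G81), nuclear RNA of TCPOBOP-treated females at 3 h (3 pools of 3, 4 and 4 livers, G86) and a stranded library of TCPOBOP-treated male whole liver at 3 h (6 livers, G81). Tissue was collected at 11 AM in each of these groups, all libraries were made from polyadenylated RNA, and all but the last were made without strand. Vehicle-treated livers were not analysed here, so no value below is an effect of the agonist.

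TCPOBOP is an agonist of the constitutive androstane receptor (CAR), and PCN is an agonist of the pregnane X receptor (PXR). Both receptors are transcription factors of hepatocytes that switch on genes for the metabolism of drugs and steroids. Many lncRNAs are retained at or near the chromatin from which they were transcribed, whereas most spliced messenger RNA is exported to the cytoplasm. Nuclear RNA is also richer than whole-cell RNA in unspliced precursors of protein-coding genes. An intergenic lncRNA lies between genes, an intragenic one lies within a gene, and an antisense one is transcribed from the strand opposite to a gene. In a library made without strand, reads from an antisense lncRNA and from the gene across from it cannot be told apart.

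The male nuclear pools held 10.7, 7.31 and 11.9 M reads, 29.9 M together, and the whole-liver library held 40.3 M. lncRNAs took 4.43% to 4.57% of the reads in the pools and 3.86% in whole liver. Since all nuclear TCPOBOP libraries of males are from G95 and the whole-liver library is from G81, compartment and experiment cannot be told apart in any difference below. Within G81 the nuclear library was from PCN-treated mice, so compartment goes with the agonist there. No entry of the table is given a gene symbol, and entries were not matched here to liver cell type markers or to known nuclear-retained RNAs. In bulk RNA, fewer cells of a type and less RNA per cell cannot be told apart. Entries are called by their identifiers and their positions on mouse genome build mm9.

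Summed over the 1343 lncRNAs, levels were higher in nuclei than in whole liver, and the classes made up different shares of the sum. The sum was 11300, 12432 and 12524 RPKM in the pools and 8844 RPKM in whole liver. Intergenic lncRNAs held 24.5%, 23.6% and 21.4% of the sum in the pools and 45.8% in whole liver. Antisense lncRNAs held 40.9%, 36.8% and 37.9% in the pools and 30.8% in whole liver. Intragenic lncRNAs held 34.6%, 39.6% and 40.7% in the pools and 23.4% in whole liver. The whole-liver value lay outside the range of the pools for each class. In the nuclear library of G81, from PCN-treated males, the shares were 34.0% intergenic, 34.7% antisense and 31.3% intragenic, which lie between the pools and whole liver. The intergenic share rested in part on ncRNA_inter_chr17_13909, which held 45.2% of the intergenic sum in whole liver and 24.5% to 31.2% of it in the pools. Without this entry, left out after the values had been seen, intergenic lncRNAs held 18.8%, 17.6% and 17.0% in the pools and 31.7% in whole liver. The antisense shares were then 39.7% to 44.0% against 38.8%, and the intragenic shares 37.2%, 42.7% and 43.0% against 29.5%. A few entries carried much of each sum, with the 10 highest making up 41.7% to 46.1% in the pools and 46.0% in whole liver.

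Each lncRNA was tested with limma on log2(RPKM + 0.1) in a joint fit of all 8 unstranded libraries, with Benjamini-Hochberg adjustment over 8796 lncRNAs and a call at an adjusted p under 0.05. Higher levels in nuclei were called for 363 of the 1343 lncRNAs and lower levels for 92. Over everything tested, 5.75% of lncRNAs were called higher, 2.93% lower and 8.69% in either direction. Among the 675 lncRNAs at 1 RPKM or more in both compartments, 139 (20.6%) were called higher and 27 (4.00%) lower. All 3 pools lay above the whole-liver value for 789 of the 1343 and all 3 lay below it for 369. The corresponding shares over everything tested were 32.7% above and 20.7% below. The median log2 difference, nuclei minus whole liver, was 0.62 over the 1343 (interquartile range -0.42 to 1.46) and 0.26 over the 8600 autosomal lncRNAs tested. Once every library had been given the same median, the median over everything tested moved from 0.26 to -0.014 and that of the 1343 lncRNAs to 0.35.

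The whole-liver group is 1 library, so its spread was taken to be that of the replicated pools, and p-values measure the spread between pools. With the 4 libraries alone in the fit, which leaves 2 residual degrees of freedom, limma called 0 lncRNAs, although 1624 of 8000 had an unadjusted p under 0.05. Leaving out male pool 1, 2 or 3 reduced the 455 calls to 228, 433 or 255. Without female pool 1, 2 or 3 there were 340, 308 or 248. Of all calls 79.8% were higher in nuclei, against 67.9% with equal medians and 62.1% after quantile normalization.

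**Figure D1:**
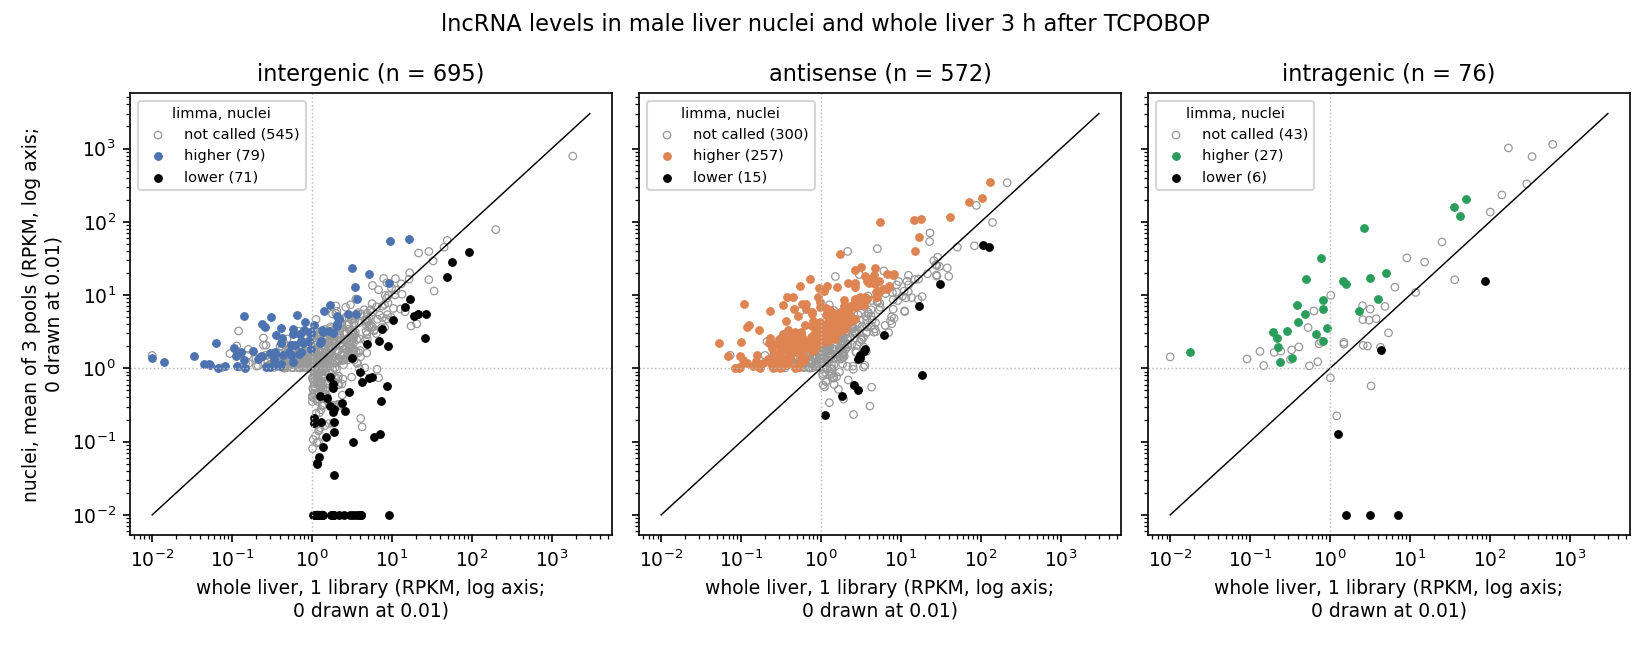
Mean RPKM in the 3 male nuclear pools (y axis, log scale) against RPKM in the 1 whole-liver library (x axis, log scale) for 1343 lncRNAs, by class, with each point 1 lncRNA, filled points called by limma, the diagonal marking equal levels and dotted lines at 1 RPKM. Of 572 antisense lncRNAs 257 were called higher in nuclei and 15 lower, and of 695 intergenic ones 79 were called higher and 71 lower.

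Calls among antisense and intragenic lncRNAs were mostly higher in nuclei, while those among intergenic lncRNAs went both ways. Of 572 antisense lncRNAs, 257 were called higher and 15 lower, with a median log2 difference of 1.03. Among the 317 of them at 1 RPKM or more in both compartments, 107 were called higher and 10 lower, with a median of 0.67. Over all 1362 autosomal antisense lncRNAs tested the counts were 292 and 18 and the median was 0.59. Of 76 intragenic lncRNAs, 27 were called higher and 6 lower, with a median of 1.48, and among the 37 of them at the threshold in both compartments the counts were 10 and 2 and the median was 0.89. Over the 168 autosomal intragenic lncRNAs tested, 29 were called higher and 7 lower, with a median of 0.72. Of the 76, 10 lay in 1 stretch of chromosome 12 and 7 in 1 stretch of chromosome 8. Entries overlap there, so these counts are not of separate places in the genome. Of 695 intergenic lncRNAs, 79 were called higher and 71 lower. Their median was 0.088, and it was -0.18 with equal medians and -0.36 after quantile normalization. Among the 321 of them at the threshold in both compartments, 22 were called higher and 15 lower and the median was -0.0064. Over the 7070 autosomal intergenic lncRNAs tested, 181 were called higher and 212 lower, with a median of 0.18.

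Median differences were higher for longer lncRNAs. Span is the distance from the first to the last base of the entry, introns included. Of 111 lncRNAs spanning under 500 bases, 10 were called higher and 23 lower, with a median log2 difference of -0.95. Of 290 spanning 500 to under 2000 bases, 38 were called higher and 32 lower, with a median of -0.10. Of 580 spanning 2000 to under 10000 bases, 189 were called higher and 24 lower, with a median of 0.77. Of 362 spanning 10000 bases or more, 126 were called higher and 13 lower, with a median of 0.89. The same order held among lncRNAs at the threshold in both compartments, where the medians from the shortest to the longest bin were -0.27, -0.18, 0.34 and 0.73. Over all autosomal lncRNAs tested the medians were 0, 0.13, 0.43 and 0.47. In that wider set 14 of 881 lncRNAs under 500 bases were called higher and 66 lower, and 80 of 4047 in the next bin were called higher and 113 lower. From 2000 to under 10000 bases the counts were 262 higher and 35 lower of 2611, and from 10000 bases up 146 and 23 of 1061.

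Span and class go together, and the order by span was seen within both intergenic and antisense entries. These medians by class and span include lncRNAs that passed the threshold on 1 side alone, whose direction it fixed. They were not taken for the lncRNAs at the threshold in both compartments. Intergenic entries made up 100 of the 111 lncRNAs under 500 bases, with 6 called higher, 22 lower and a median log2 difference of -1.05. Intergenic lncRNAs of 500 to under 2000, 2000 to under 10000 and 10000 or more bases had medians of -0.22, 0.30 and 0.49. Antisense lncRNAs had medians of 0.084 at 500 to under 2000 bases (n = 56), 1.07 at 2000 to under 10000 (n = 323) and 1.24 at 10000 or more (n = 190). At 10000 bases or more, 95 of the 190 antisense lncRNAs were called higher and 4 lower, against 14 and 6 of the 123 intergenic ones. The intragenic lncRNAs, with 49 of 76 at 10000 bases or more, showed no such order. Their medians from the shortest bin up were 2.37, 0.76, 2.28 and 1.41, on 8, 10, 9 and 49 entries.

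**Figure D2:**
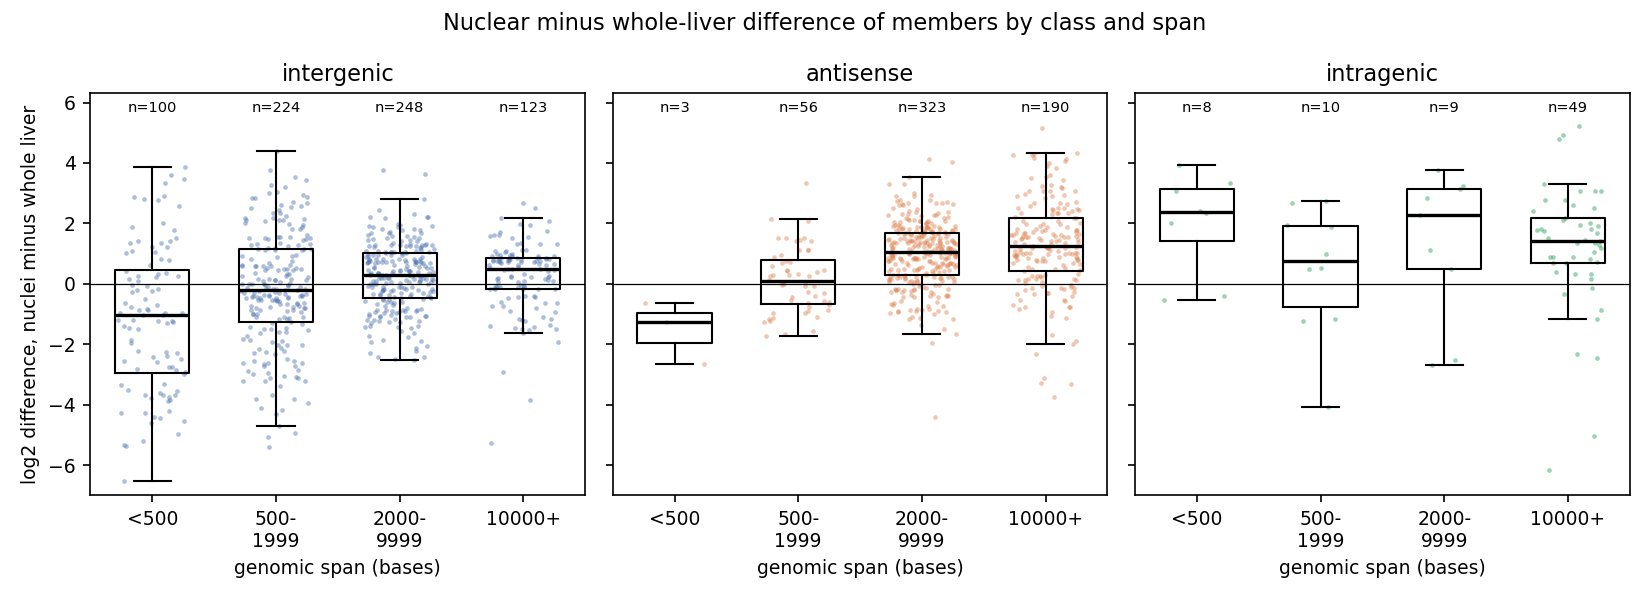
Log2 difference of male nuclear pools minus whole liver (y axis) for lncRNAs of 4 span bins (x axis, bases) in each class, with a point per lncRNA, boxes at the quartiles, a thick line at the median and whiskers to the farthest value within 1.5 box lengths. Intergenic medians run from -1.05 under 500 bases to 0.49 at 10000 bases or more, and antisense medians from 0.084 at 500 to under 2000 bases to 1.24 at 10000 bases or more.

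The 10 lncRNAs with the highest called differences came from 4 places in the genome, and 6 of them lay in 1 stretch of chromosome 8. That stretch, chromosome 8 95577587-95676870, held 21 of the lncRNAs, 14 antisense and 7 intragenic, and 19 were called higher and none lower. Their summed level was 751, 873 and 839 RPKM in the pools and 133 RPKM in whole liver. The 3 pools lay close together and all stood well above the whole-liver library. The nuclear PCN library of G81 had 286 RPKM there, the female nuclear pools a mean of 1440 ± 301 RPKM (SD, n = 3), and the stranded whole-liver library 69.6 RPKM. The entries overlap each other on both strands, so reads may be divided among them in a way the values do not show. How this affects single entries and their sum was not tested. Of the 10 highest, only ncRNA_intra_chr8_7323, ncRNA_as_chr8_7303 and ncRNA_as_chr8_7306 reached 1 RPKM in both compartments. The others reached it in nuclei alone, so the threshold fixed their direction.

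Within that stretch, ncRNA_intra_chr8_7322 (chromosome 8 95634042-95667133, minus strand) had 33.3, 27.5 and 36.0 RPKM in the pools and 0.768 RPKM in whole liver, from 69, 39, 83 and 6 reads. Its log2 difference of 5.21 (SE 0.36, limma adjusted p = 0.00334) was the highest of all, on a counted length of 194 bases. The neighbouring intragenic entry ncRNA_intra_chr8_7323 (chromosome 8 95634964-95668066) had 81.4, 74.6 and 94.7 RPKM in the pools and 2.65 RPKM in whole liver, a log2 difference of 4.92 (SE 0.34). For ncRNA_intra_chr8_7321 (chromosome 8 95633804-95666948) the levels were 19.3, 14.9 and 15.9 RPKM against 0.50 RPKM. All 3 were also higher in the nuclear PCN library than in whole liver, at 4.93, 9.55 and 2.21 RPKM, but below every male TCPOBOP pool. The most abundant entry of the stretch, ncRNA_intra_chr8_7313 (chromosome 8 95632493-95665647), had 181, 230 and 204 RPKM in the pools and 50.2 RPKM in whole liver, which is a difference of 2.02 on the log2 scale (SE 0.30, limma adjusted p = 0.0183). Its call was lost after quantile normalization and without male pool 3.

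Antisense entries of the same stretch went the same way. ncRNA_as_chr8_7306 (chromosome 8 95590591-95634563, plus strand) had 99.0, 107 and 95.8 RPKM in the pools, 5.52 RPKM in whole liver and 14.9 RPKM in the nuclear PCN library. Its log2 difference was 4.16 (SE 0.31, limma adjusted p = 0.00407), and the female pools had 111, 189 and 121 RPKM. ncRNA_as_chr8_7303 (chromosome 8 95583784-95627943) had 32.7, 37.8 and 37.1 RPKM in the pools against 1.75 RPKM, and ncRNA_as_chr8_7318 (chromosome 8 95633468-95666757) had 8.58, 11.8 and 7.49 RPKM against 0.379 RPKM. All 3 antisense entries had 0 reads in the stranded whole-liver library. The 3 intragenic entries named first, on the minus strand, had 13.4, 8.46 and 14.1 RPKM there. Those levels exceeded the 0.768, 2.65 and 0.50 RPKM of unstranded whole liver. For ncRNA_intra_chr8_7321 the stranded 14.1 RPKM came near the lowest male pool at 14.9 RPKM. The large differences of these 3 entries thus hold against the unstranded library, and differences from the stranded one were not tested. For ncRNA_intra_chr8_7313 the stranded level was the lower one, 12.5 against 50.2 RPKM.

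A stretch of chromosome 1 held the next group. At chromosome 1 141480982-142017368, 12 lncRNAs summed to 91.9, 72.9 and 82.8 RPKM in the pools and 32.2 RPKM in whole liver, with 6 called higher and 1 lower. ncRNA_as_chr1_605 (chromosome 1 141508535-141803218, plus strand) had 9.33, 5.06 and 8.42 RPKM in the pools and 0.108 RPKM in whole liver, where it had 8 reads. Its log2 difference was 5.16 (SE 0.49, limma adjusted p = 0.00717). In the nuclear PCN library it had 0.372 RPKM and in the female pools 1.72, 3.42 and 1.95 RPKM, all of these below the male pools and above whole liver. ncRNA_as_chr1_614 (chromosome 1 141663901-141715362), the most abundant entry of that stretch, had 13.5, 11.2 and 14.6 RPKM in the pools against 0.553 RPKM, a log2 difference of 4.33 (SE 0.34). Neither antisense entry had a read in the stranded whole-liver library.

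Of the 2 remaining entries among the highest 10, 1 was intergenic and overlapped no other entry. ncRNA_inter_chr16_13316 (chromosome 16 44046269-44047863, minus strand, counted over its whole span of 1595 bases) had 6.87, 4.20 and 4.27 RPKM in the pools and 0.140 RPKM in whole liver. The reads behind these levels were 117, 49 and 81 in the pools and 9 in whole liver, and the log2 difference was 4.40 (SE 0.39, limma adjusted p = 0.00645). The female pools, at 3.69, 6.18 and 4.42 RPKM, overlapped the male pools, and the nuclear PCN library was at 0.457 RPKM. Stranded whole liver had 0.659 RPKM of it from 27 reads, above the unstranded level and below every male pool. The other was ncRNA_as_chr12_10861 (chromosome 12 105009689-105141254), with 20.3, 13.5 and 15.3 RPKM in the pools against 0.734 RPKM in whole liver and 0.225 RPKM in the nuclear PCN library, the last from 1 read.

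The lncRNAs with the lowest nuclear values were mostly short intergenic entries with no reads in the pools. Those with the 10 lowest called differences all reached 1 RPKM in whole liver alone, so the threshold fixed their direction. Of the 92 called lower, 28 had 0 reads in all 3 male pools, 25 of them intergenic, and their median span was 392 bases. With the 3 reads that a count of 0 allows over the pools together, they were at least 2.47-fold to at least 23.5-fold lower in nuclei than in whole liver, a bound that covers counting error only. Of these 28, 25 had at least 1 read in the nuclear PCN library of G81. In the female pools 16 of the 28 had no read, and 14 of those 16 were present in the nuclear PCN library. Those 14 were thus found in both unstranded G81 libraries and in none of the 6 nuclear TCPOBOP pools of the other experiments.

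ncRNA_inter_chr1_211 (chromosome 1 55185423-55185650, strand not given) had 0 reads in every male and female pool and 84 reads in whole liver, a level of 9.14 RPKM. The nuclear PCN library had 7.40 RPKM of it, and it was at least 20.8-fold lower in the male pools than in whole liver. ncRNA_intra_chr11_9610 (chromosome 11 33654764-33855712, counted over 305 bases) had no read in the male pools, 7.08 RPKM in whole liver and 5.68 RPKM in nuclear PCN, and was at least 21.5-fold lower. ncRNA_inter_chr1_202 (chromosome 1 52641943-52642513) had no read in any of the 6 TCPOBOP pools and 95 in whole liver, at 4.13 RPKM, and was at least 23.5-fold lower. For ncRNA_inter_chr14_12216 (chromosome 14 80712274-80712584) the nuclear PCN level of 6.15 RPKM exceeded the 3.91 RPKM of whole liver. In these 4 the nuclear library of the same experiment as whole liver held the RNA, and the male nuclear pools of the other experiment had no read of it.

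Both ncRNA_inter_chr9_7787 (chromosome 9 26766592-26766860) and ncRNA_inter_chr2_1608 (chromosome 2 108897717-108898269) differed from those 4, with 0 reads in the male pools and in the nuclear PCN library. Whole liver held 4.06 RPKM of the former and 3.28 RPKM of the latter, from 44 and 73 reads, and the male pools were at least 10.9-fold and at least 18.1-fold lower. A long entry, ncRNA_inter_chr7_5922 (chromosome 7 15550326-15672489, counted over 1463 bases), had 0.320, 0 and 0.0575 RPKM in the pools, 7.09 RPKM in whole liver and 14.0 RPKM in nuclear PCN. Its log2 difference of -5.26 (SE 0.86, limma adjusted p = 0.0232) lost its call at a pseudocount of 0.01 and without male pool 3, female pool 1 or female pool 3. The remaining entries of the lowest 10, ncRNA_inter_chr4_3084, ncRNA_intra_chr4_3167 and ncRNA_inter_chr19_15209, had no read in the male pools, 3.02 to 3.55 RPKM in whole liver and 1.85 to 2.73 RPKM in nuclear PCN.

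**Figure D3:**
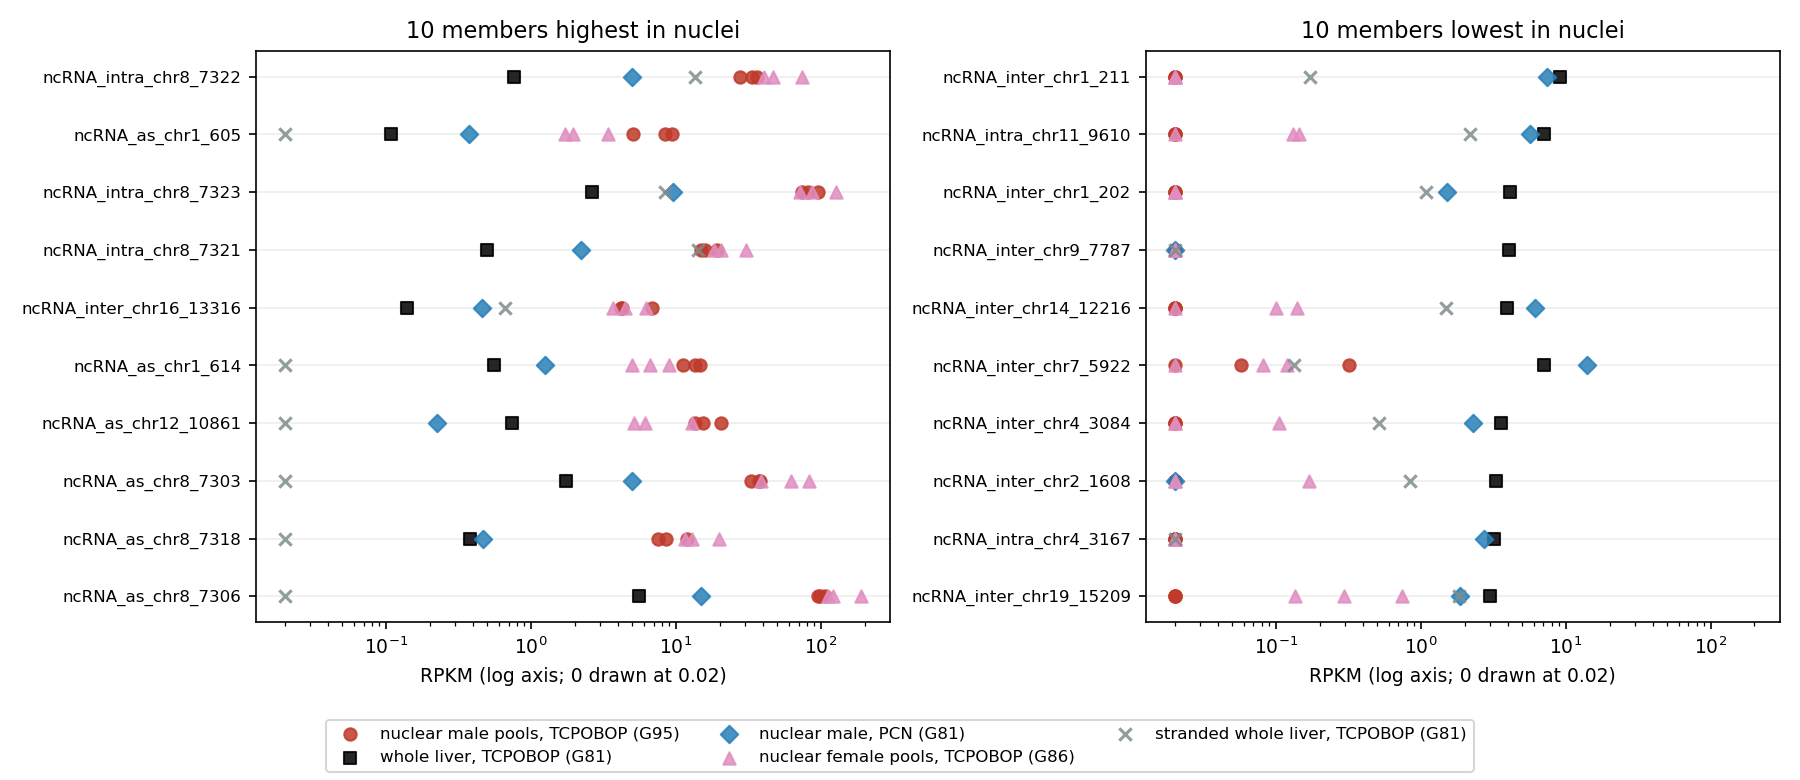
RPKM (x axis, log scale, 0 drawn at 0.02) of the 10 lncRNAs with the highest and the 10 with the lowest called differences, with a mark per library. In the left panel the male nuclear pools lie above whole liver in all 10 and the nuclear PCN library lies below the male pools in all 10, and in the right panel the nuclear PCN library has 1.52 RPKM or more in 8 of the 10.

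For most of these lncRNAs, called or not, the nuclear PCN library of G81 lay nearer to whole liver of the same experiment than to the nuclear pools of G95. On the log2 scale this held for 276 of the 363 lncRNAs called higher (76.0%) and for 67 of the 92 called lower (72.8%), beside 902 of all 1343 lncRNAs (67.2%). The median log2 difference from whole liver among those called higher was 1.81 in the male pools, 0.56 in the nuclear PCN library and 1.50 in the female pools. Among those called lower it was -2.67, -0.60 and -2.21. The female pools, from yet another experiment, were nearer to whole liver than to the male pools for 49 of the 363 and 12 of the 92, beside 382 of all 1343 (28.4%). Of the 92 called lower, 64 reached 1 RPKM in the nuclear PCN library. All of these differences share the whole-liver library and the calls were made from it, so they are descriptions. The parts of compartment, experiment and agonist in them cannot be told apart.

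The most abundant lncRNAs did not all follow their class. The highest of the intergenic entries was ncRNA_inter_chr17_13909 (chromosome 17 39979940-39985776), with 788, 917 and 656 RPKM in the pools and 1834 RPKM in whole liver. The nuclear PCN library had 1318 RPKM of it and the female pools 445, 230 and 333 RPKM. All 3 male pools were below whole liver, and the log2 difference of -1.23 (SE 0.40, limma adjusted p = 0.132) was not called. ncRNA_inter_chr19_14746 (chromosome 19 5824552-5845906, counted over its whole span of 21355 bases) had 54.7, 84.9 and 94.8 RPKM in the pools, 199 RPKM in whole liver and 173 RPKM in nuclear PCN. The female pools, at 176, 177 and 148 RPKM, lay above all 3 male pools and below whole liver, and the difference of -1.39 between male pools and whole liver (SE 0.33, limma adjusted p = 0.0649) was not called. For ncRNA_inter_chr11_10189 (chromosome 11 116937684-116940269) the levels were 35.9, 43.0 and 35.7 RPKM in the pools and 91.2 RPKM in whole liver, with a called difference of -1.26 (SE 0.16, limma adjusted p = 0.0131).

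Of the 4 most abundant antisense entries, 2 were called higher in nuclei and 2 were not called. ncRNA_as_chr3_2485 (chromosome 3 82828269-82835160) had 362, 288 and 395 RPKM in the pools, 132 RPKM in unstranded whole liver and 0.368 RPKM in stranded whole liver. Its log2 difference was 1.39 (SE 0.22, limma adjusted p = 0.0212), and the call was lost after quantile normalization and without male pool 1 or female pool 3. ncRNA_as_chr13_11451 (chromosome 13 62183523-62398274) had 222, 211 and 204 RPKM in the pools and 104 RPKM in whole liver, and the stranded library had nearly as much, 98.5 RPKM. Its difference of 1.02 (SE 0.15, limma adjusted p = 0.0179) lost its call with equal medians, after quantile normalization and without male pool 1. ncRNA_as_chr12_10850 (chromosome 12 104966560-105094006) had 314, 341 and 368 RPKM in the pools and 213 RPKM in whole liver and was not called, with a difference that turned to -0.17 after quantile normalization. ncRNA_as_chr7_6048 (chromosome 7 31707653-31729453) had 91.0, 95.3 and 107 RPKM in the pools and 140 RPKM in whole liver and was not called.

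The most abundant intragenic entries all lay on chromosome 12, and none of the 4 was called. ncRNA_intra_chr12_10859 (chromosome 12 105002287-105133890, counted over 272 bases) had 1022, 1065 and 1333 RPKM in the pools and 612 RPKM in whole liver, which is a difference of 0.89 on the log2 scale (SE 0.22, limma adjusted p = 0.0742). ncRNA_intra_chr12_10883 (chromosome 12 105372136-105582307, counted over 118 bases) had 603, 1281 and 1167 RPKM in the pools and 171 RPKM in whole liver. All 3 pools exceeded whole liver for this entry, but pool 1 had about as much as the nuclear PCN library at 556 RPKM, and the difference of 2.50 (SE 0.62, limma adjusted p = 0.0722) was not called. ncRNA_intra_chr12_10851 (chromosome 12 104967749-105134828) had 695, 713 and 920 RPKM against 337 RPKM, a difference that turned to -0.12 after quantile normalization. The pools overlapped whole liver for ncRNA_intra_chr12_10871 (chromosome 12 105092079-105133647), at 269, 369 and 351 RPKM against 289 RPKM, and its difference of 0.18 turned to -0.096 with equal medians.

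Neighbouring lncRNAs were joined wherever no more than 50000 bases lay between them, without regard to their values. This gave 56 stretches of 3 or more, which held 235 of the 1343 lncRNAs (17.5%), with 72 of the 363 higher calls and 11 of the 92 lower calls. Summed levels lay above whole liver in all 3 pools in 37 stretches, below it in 15 and on both sides in 4. The ratio of the mean of the pools to whole liver ran from 0.0472 to 10.6, with a median of 1.55. Calls in both directions occurred within 4 of the stretches, and 22 held no call.

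After the stretch on chromosome 8, the one with the most entries was chromosome 12 104966560-105142526. Its 20 lncRNAs, 10 antisense and 10 intragenic, summed to 2423, 2556 and 3088 RPKM in the pools and 1462 RPKM in whole liver, and 10 were called higher. The nuclear PCN library had 1824 RPKM there and the stranded whole-liver library 345 RPKM. A little farther along, at chromosome 12 105345276-105653343, 8 lncRNAs summed to 835, 1637 and 1517 RPKM in the pools against 316 RPKM in whole liver, with 1 called. Nuclear PCN had 956 RPKM there, inside the range of the pools. The pools stood above whole liver in both stretches of chromosome 12, by more than the distance between pools in the first.

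At chromosome 15 82473636-82537540, 7 intergenic lncRNAs summed to 99.8, 88.0 and 108 RPKM in the pools and 27.3 RPKM in whole liver, and 4 were called higher. The nuclear PCN library had 37.2 RPKM and the female pools a mean of 88.1 ± 17.7 RPKM (SD, n = 3). This was the largest group made up of intergenic entries alone, and all 7 had positive differences, the lowest 0.64 on the log2 scale. Its most abundant entry, ncRNA_inter_chr15_12778 (chromosome 15 82522474-82523242), had 54.3, 51.7 and 68.1 RPKM in the pools and 16.4 RPKM in whole liver. The log2 difference was 1.81 (SE 0.27, limma adjusted p = 0.0183), and the call was lost without male pool 1 or female pool 3.

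The other stretches of 5 entries had sums near whole liver in at least 1 pool, but their single entries ranged widely. Log2 differences of the entries ran from -0.37 to 2.18 on chromosome 10, -2.23 to -0.0064 on chromosome 11 and -1.61 to 3.62 on chromosome 5. At chromosome 10 94798910-94893839, 5 intergenic lncRNAs summed to 6.70, 4.81 and 10.1 RPKM in the pools and 4.67 RPKM in whole liver, with no call. At chromosome 11 57900769-57916572 the sums were 10.2, 14.9 and 9.28 RPKM against 15.6 RPKM, with 1 lower call. At chromosome 5 148706820-148730427 they were 37.8, 52.2 and 30.3 RPKM against 52.8 RPKM, with 1 higher call. In each of these the pool nearest to whole liver came close to it. Their most abundant entries, ncRNA_inter_chr10_9183, ncRNA_inter_chr11_9747 and ncRNA_inter_chr5_4773, had log2 differences of 0.49, -0.098 and 1.04, and none was called.

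**Figure D4:**
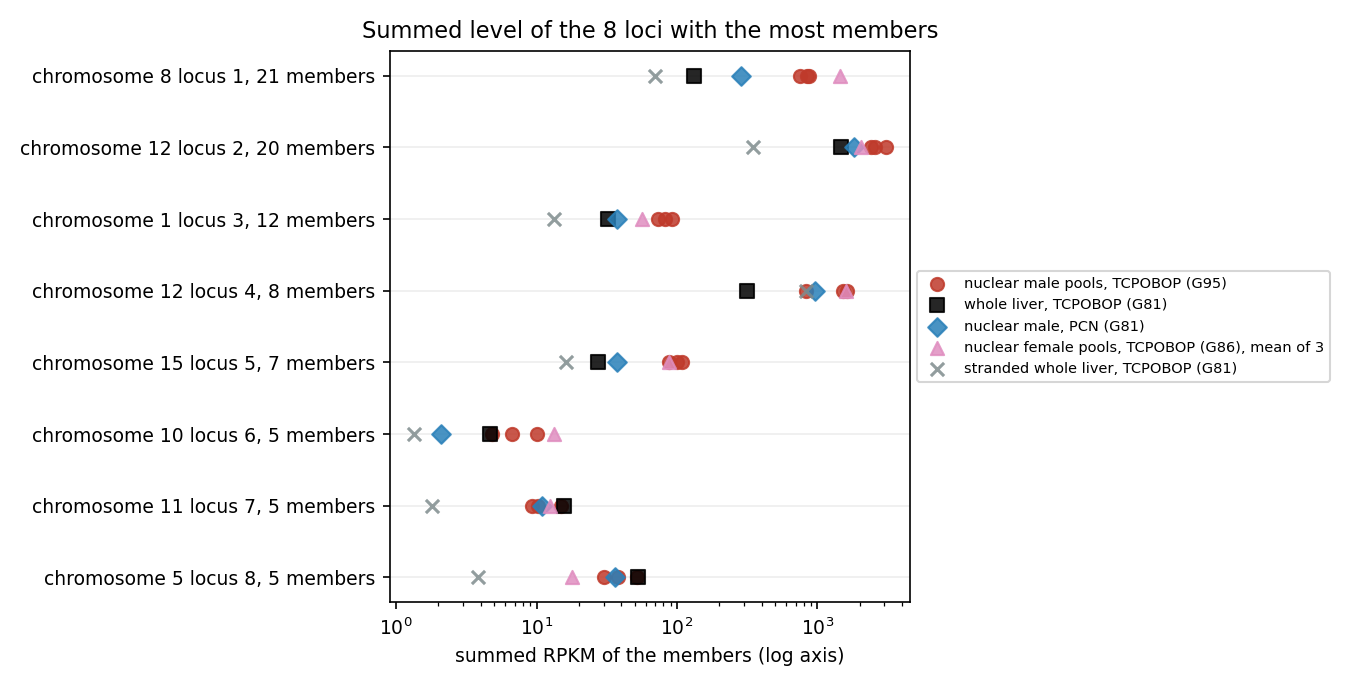
Summed RPKM (x axis, log scale) of the lncRNAs in each of the 8 stretches with the most entries (y axis, in order of the number of entries), with a mark per male pool and single library and the mean of 3 for the female pools. The male pools stand at 751 to 873 RPKM against 133 RPKM in whole liver at the first stretch on chromosome 8, while the pool nearest to whole liver nearly meets it in the last 3 rows.

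Beyond those 8, 5 stretches were singled out after their values had been seen, the first 4 for high or low ratios and the last for its level in the nuclear PCN library. At chromosome 17 22427148-22450177, 3 intergenic lncRNAs summed to 6.86, 4.99 and 7.90 RPKM in the pools and 0.622 RPKM in whole liver, and 2 were called higher. At chromosome 11 30880594-30885354, 3 intragenic lncRNAs were all called higher, with 44.0, 43.4 and 33.3 RPKM in the pools, 4.98 RPKM in whole liver and 5.94 RPKM in nuclear PCN. At chromosome 3 24650408-24679739, 3 intergenic lncRNAs had 0.187, 1.08 and 0.336 RPKM in the pools, 11.3 RPKM in whole liver and 3.17 RPKM in nuclear PCN, and 2 were called lower. At chromosome 1 85022940-85246424, 2 antisense lncRNAs and 1 intragenic lncRNA summed to 1.40, 0.986 and 0.865 RPKM in the pools, 9.60 RPKM in whole liver and 3.56 RPKM in nuclear PCN, with no call. At chromosome 19 40083308-40187923, 4 intragenic lncRNAs had 246, 313 and 234 RPKM in the male pools and 146 RPKM in whole liver, both TCPOBOP, but 16.5 RPKM in the nuclear PCN library. There the unstranded TCPOBOP libraries all lay above the 1 PCN library, although stranded TCPOBOP whole liver, at 4.16 RPKM, lay below it. The female TCPOBOP pools, at a mean of 311 ± 50.3 RPKM (SD, n = 3), were with the male ones. Whether the agonist plays a part was not tested.

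The stranded whole-liver library was of the same agonist, time and sex as the unstranded one, and most of these lncRNAs had lower levels in it. Of the 1343 lncRNAs, 884 had at least 1 RPKM in unstranded whole liver. The stranded level was a median of 13.5% of the unstranded one for 490 intergenic lncRNAs, 32.1% for 44 intragenic ones and 0.686% for 350 antisense ones. Of those 350 antisense lncRNAs, 186 had under 1% of their unstranded level in the stranded library, and 120 had no read there. The stranded library held 25.7 M reads, and only 0.918% of them fell on lncRNAs. The strand setting of the counting is not given in the sources used here.

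Nuclear calls of antisense lncRNAs were unevenly spread over this measure. Of the 186 with under 1% of their unstranded level in the stranded library, 83 were called higher in nuclei and 9 lower, with a median log2 difference of 0.87. Of 57 with 1% to under 10%, 15 were called higher and 1 lower, with a median of 0.42. Of 107 with 10% or more, 9 were called higher and 5 lower, with a median of 0.097. Intergenic lncRNAs had medians of -0.99 (n = 91), -0.92 (n = 119) and -0.11 (n = 280) in the same bins, with 3, 2 and 17 called higher and 21, 16 and 34 called lower. The unstranded whole-liver value enters both the percentage and the difference, so the 2 are not independent. The part of reads from overlapping genes in the antisense differences was not tested.

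**Figure D5:**
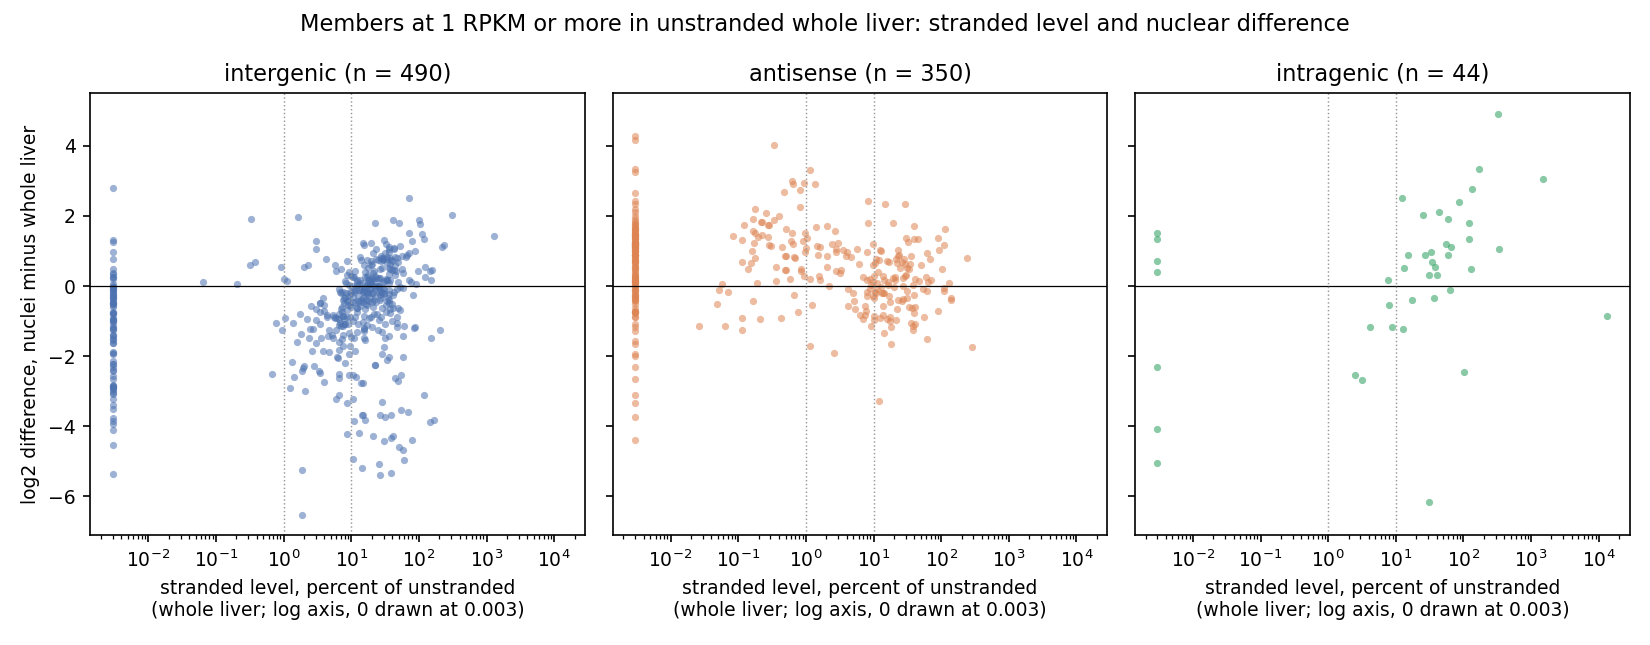
Log2 difference of male nuclear pools minus unstranded whole liver (y axis) against the stranded whole-liver level as a percentage of the unstranded one (x axis, log scale, 0 drawn at 0.003) for 884 lncRNAs by class, with dotted lines at 1% and 10% and each point 1 lncRNA. Of 350 antisense lncRNAs, 186 lie left of the 1% line with a median difference of 0.87, and the 107 right of the 10% line have a median of 0.097.

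The 3 male pools agreed closely for most of these lncRNAs. Over the 1134 with a pool mean of at least 1 RPKM, the median coefficient of variation between pools was 18.5%. It was 15.9% for antisense, 21.9% for intergenic and 22.1% for intragenic lncRNAs. At a pool mean of 1 to under 2 RPKM it was 22.4% and at 20 RPKM or more 15.4%. No pair of pools was a repeat of the same library, since their reads differed by 12.6 to 17.1 times the sampling variance.

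Many of the lncRNAs share sequence with other entries. Another entry overlapped 189 of the 1343, and 177 of these had one on the other strand. The 189 had a median log2 difference of 0.89, with 58 called higher and 12 lower, and the 1154 that overlapped no entry had a median of 0.55, with 305 called higher and 80 lower. The counted length was the full span for 761, median difference 0.52, and shorter for 582, median difference 0.73. The direction of the calls was thus the same with and without overlapping entries.

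The threshold of 1 RPKM cut through a dense range of levels. The 5 lncRNAs just inside it had pool means of 1.00 to 1.01 RPKM and lower levels in whole liver. These were ncRNA_as_chr14_11957 at 0.304 RPKM in whole liver, ncRNA_inter_chr2_1430 at 0.935, ncRNA_inter_chr1_869 at 0.146, ncRNA_as_chr6_5636 at 0.717 and ncRNA_inter_chr8_6942 at 0.448. Of the 5 just outside it, 4 had pool means of 0.996 to 0.999 RPKM. These were ncRNA_inter_chr11_9953 at 0.538 RPKM in whole liver, ncRNA_inter_chr15_12332 at 0.406, ncRNA_inter_chr10_9263 at 0.530 and ncRNA_intra_chr17_13898 at 0.156. The other, ncRNA_inter_chr15_12451, had 0.997 RPKM in whole liver and a pool mean of 0.249 ± 0.0869 RPKM (SD, n = 3). With a threshold of 2 RPKM, 251 lncRNAs were called higher and 53 lower, and with 0.5 RPKM, 443 and 137.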

How the data were processed

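The authors deposited RPKM values for 15558 lncRNAs, a unit given per the file headers. Per the submitters' processing notes, TopHat2 and genome build mm9 were used. How reads were counted, with which strand setting and on which annotation, is not given in the sources used here. Of 25 value columns, 12 matched a library and 13 were not used here. The values stepped in whole reads, and 100% of 89242 values above 0 gave a whole number within 1e-06 read, from which depth and counted lengths were taken.

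limma 3.58.1 in R 4.3.3, with a mean-variance trend, was fitted to log2(RPKM + 0.1) for 4 groups in 8 unstranded libraries, with 4 residual degrees of freedom, on lncRNAs at 0.1 RPKM or more in at least 1 library. The pseudocount understates fold changes of lncRNAs with low levels. An entry with 0 reads in every pool has no spread there. The labels number the pools without saying whether livers were shared, so p-values measure the spread between these pools. The fit was tested on simulated data that held no difference between experiments, so that test does not bear on calls made across G95 and G81. Tables were handled in Python 3.11.15.

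Those named in the text were the 10 highest and 10 lowest called differences with the 3 pools on 1 side, the 3 most abundant of each class in the pools and in whole liver, the most abundant entry of the 8 stretches with the most entries, and 5 entries on each side of the threshold. The lncRNAs, classes, bins and rules were chosen with earlier results of these data known. The fit without the nuclear PCN library and the class shares without ncRNA_inter_chr17_13909 were added after the data had been seen.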

Additional observations from a re-analysis of the deposited data

Results flagged for a closer look

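In 4 stretches all 3 male nuclear pools lay on 1 side of the whole-liver level and all 3 female nuclear pools on the other. The difference was not tested, and sex and experiment cannot be told apart. At chromosome 8 116533748-116679361 the summed level was 53.2, 57.3 and 60.8 RPKM in male pools, 52.1 RPKM in male whole liver and a mean of 15.7 RPKM in female pools. At chromosome 8 107582429-107607478 it was 31.1, 34.1 and 33.1 RPKM in male pools, 22.2 RPKM in whole liver and 8.18 RPKM in female pools. At chromosome 7 119324943-119355696 it was 3.79, 5.15 and 4.36 RPKM, 3.00 RPKM and 1.27 RPKM in the same order. The direction was opposite at chromosome 4 63012612-63026707, with 20.4, 20.3 and 39.3 RPKM in male pools, 57.3 RPKM in whole liver and 151 RPKM in female pools.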

How the results depend on the processing

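Calls among the 1343 lncRNAs fell from 455 (363 higher in nuclei, 92 lower) to 0 higher and 0 lower with the 4 libraries alone. That fit left 2 residual degrees of freedom, and the cause of the fall was not tested. Calls numbered 736 (197 lower) with limma-voom on recovered reads, and 168 were lower after quantile normalization. Leaving out 1 pool in turn gave 228 to 433 calls, 173 to 340 higher and 55 to 93 lower; without the nuclear PCN library there were 467 (370 higher and 97 lower). With lncRNAs at 2 RPKM or more, 53 were called lower. The numbers in both compartments, in nuclei alone and in whole liver alone were 1233, 735 and 439 at 0.5 RPKM and 340, 288 and 106 at 2 RPKM. Joining within 10000 bases gave 29 stretches and within 100000 bases 73, against 56. The cause of the changes below was not tested. Median log2 differences with pseudocounts of 0.01 and 1, equal medians and quantile normalization were 1.10, 0.66, 0.76 and 0.66 for antisense entries, 0.81, 0.46, 0.49 and 0.38 for spans of 2000 to under 10000 bases, and 0.94, 0.62, 0.62 and 0.48 for 10000 bases or more. With a pseudocount of 1, equal medians and quantile normalization they were 0.93, 1.21 and 1.11 for intragenic entries and -0.64, -1.23 and -1.41 under 500 bases. With equal medians and quantile normalization they were -0.37 and -0.57 at 500 to under 2000 bases, and for intergenic entries they turned to -0.18 and -0.36. Leaving out 1 male pool gave medians of 1.43 to 1.57 for intragenic entries, -0.15 to -0.042 at 500 to under 2000 bases and 0.76 to 0.80 at 2000 to under 10000 bases. Differences turned negative after quantile normalization for ncRNA_as_chr12_10850 (-0.17), ncRNA_intra_chr12_10851 (-0.12) and ncRNA_intra_chr12_10871 (-0.63, and -0.096 with equal medians), none of them called. Of 25 named calls, 5 were lost in some fit other than that of the 4 libraries alone. No paired analysis was possible, because the labels link no nuclear pool to the whole-liver library, which came from another experiment. Depth limits the lower calls in that 28 of the 92 had 0 reads in pools that held 29.9 M reads together.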
